A study of Ovis aries with 41 samples.

Results

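The lipoxygenases and prostaglandin synthases measured here are 10 genes, ALOX15, ALOX12, ALOX5, ALOX5AP, LTC4S, PTGS1, PTGS2, PTGDS, PTGES and HPGD. They were chosen by name, with earlier results of these data known, and all were found among the 31182 genes of the count table. Their RNA was measured by poly(A) RNA-seq in tail skin of adult rams of the Improved Jezersko–Solčava breed, taken after slaughter at the tail base, at mid-tail and near the tip. Of the 7 rams, 3 were D/D, homozygous for the derived, long-tail allele at the HOXB13 promoter, and 4 were A/A, homozygous for the ancestral, short-tail allele. Each ram gave 2 libraries per position, except that D/D ram 871869 gave 1 at mid-tail, for 41 libraries in all. The 3 positions of a ram come from 1 animal, the rams were not otherwise treated, and mid-tail and tip lie farther from the base in the longer D/D tails. Levels are given as CPM, counts scaled to the library's total after its adjustment by edgeR's TMM normalisation, and not to the plain total. They come from the libraries summed per ram and position, so that the ram is the replicate.

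Eicosanoids are short-lived signalling lipids made from arachidonic acid that phospholipases release from membranes. ALOX5, presented with its substrate by the membrane protein ALOX5AP, opens the leukotriene branch, and LTC4S joins glutathione to the product to make the cysteinyl leukotrienes known for widening the gaps between vessel cells. The cyclooxygenases PTGS1, mostly constitutive, and PTGS2, mostly induced, open the prostaglandin branch, in which PTGDS makes prostaglandins of the D type and PTGES those of the E type, and HPGD inactivates prostaglandins. ALOX15 and ALOX12 oxidise fatty acids at other carbons; in human tissue ALOX15 is known from eosinophils, airway epithelium and alternatively activated macrophages, and ALOX12 from platelets and epidermis. In skin these lipids are made by keratinocytes, fibroblasts and resident and infiltrating leukocytes.

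Library totals ran between 9177395 and 23431409 counts, with a median of 14039720, and the sums per ram and position between 17132063 and 37645752. HOXB13 followed the position labels in every ram, with 0.264 to 1.09 CPM in D/D tips against 0 to 0.0308 CPM in D/D bases, and 3.44 to 6.43 CPM in A/A tips against 0 to 0.0432 CPM in A/A bases. The skin markers KRT14, of basal keratinocytes, and COL1A1, of fibroblasts, were read in every sum, KRT14 at 3046.6 CPM or more and COL1A1 at 434.3 CPM or more. The lowest COL1A1 value was an A/A tip, where the group median was 4578.9 CPM. Over the 7 rams COL1A1 averaged 3723.1 CPM at the tip against 7412.0 CPM at the base. Because the samples are whole skin, fewer cells of a type and less RNA per cell cannot be told apart.

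ALOX15 and the leukotriene C4 synthase gene LTC4S were lower at the tip than at the base in every one of the 7 rams, as 3.53% of the genes tested were. With the cyclooxygenase gene PTGS1 and the ALOX5 partner ALOX5AP they made up the 4 of 10 enzyme genes that fell at the tip when both genotypes were averaged. None of the 10 rose. In the same edgeR quasi-likelihood test (Benjamini-Hochberg adjusted p under 0.05), 2.62% of the 19444 genes tested fell and 1.89% rose. The study named ALOX15, ALOX5AP, PTGS1 and PTGDS among down-regulated fatty acid metabolism genes, a process it found enriched at the D/D tip of these samples. Their direction is thus not independent evidence. Elsewhere the study lists ALOX15 among genes that rose along the tail in part of its RNA-seq and qPCR data. It also measured ALOX15 by TaqMan qPCR in skin and bone of these and further rams, which was not analysed here.

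ALOX15 was the enzyme gene with the steepest decline. Its tips held 0.130, 0.0288 and 0.0753 CPM in D/D rams 871787, 871868 and 871869, against 1.07, 1.08 and 7.30 CPM in their bases. In A/A rams 835507, 871772, 871784 and 871932 its tips held 0.422, 0.137, 0.248 and 0.328 CPM, against 0.863, 1.35, 1.14 and 0.688 CPM in their bases. All 7 tips thus lay below all 7 bases.

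These are few reads: the tips of the 3 D/D rams held 3, 1 and 2 counts of ALOX15, against 26, 32 and 237 in their bases. Over the summed counts, the D/D tips were at 0.0208 of the D/D base level (95% exact counting interval 0.00758 to 0.0459), and the A/A tips at 0.272 of the A/A base level (0.178 to 0.406). Such intervals cover counting error only, not the spread between rams. The averaged log2 fold change was -3.52 (SE 0.53), with an edgeR adjusted p of 0.00151 that ranked the gene 82nd of the genes tested. ALOX15 passed the filter on low counts through the base, where 7 of 7 sums reached the level of 10 counts (0.365 CPM), and mid-tail, where 6 of 7 did, since at the tip only 1 of 7 did.

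D/D ram 871869 stands apart at the base, where both of its libraries were high with 103 and 134 ALOX15 counts. The base libraries of D/D ram 871868 differed from each other, with 0 and 32 counts, and the other base libraries held between 4 and 25. With D/D ram 871869 left out of the fit, the averaged change was -2.94 and its edgeR adjusted p 0.0227. Across all 7 such fits the adjusted p of ALOX15 lay between 9.52e-04 and 0.0227.

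**Figure D1:**
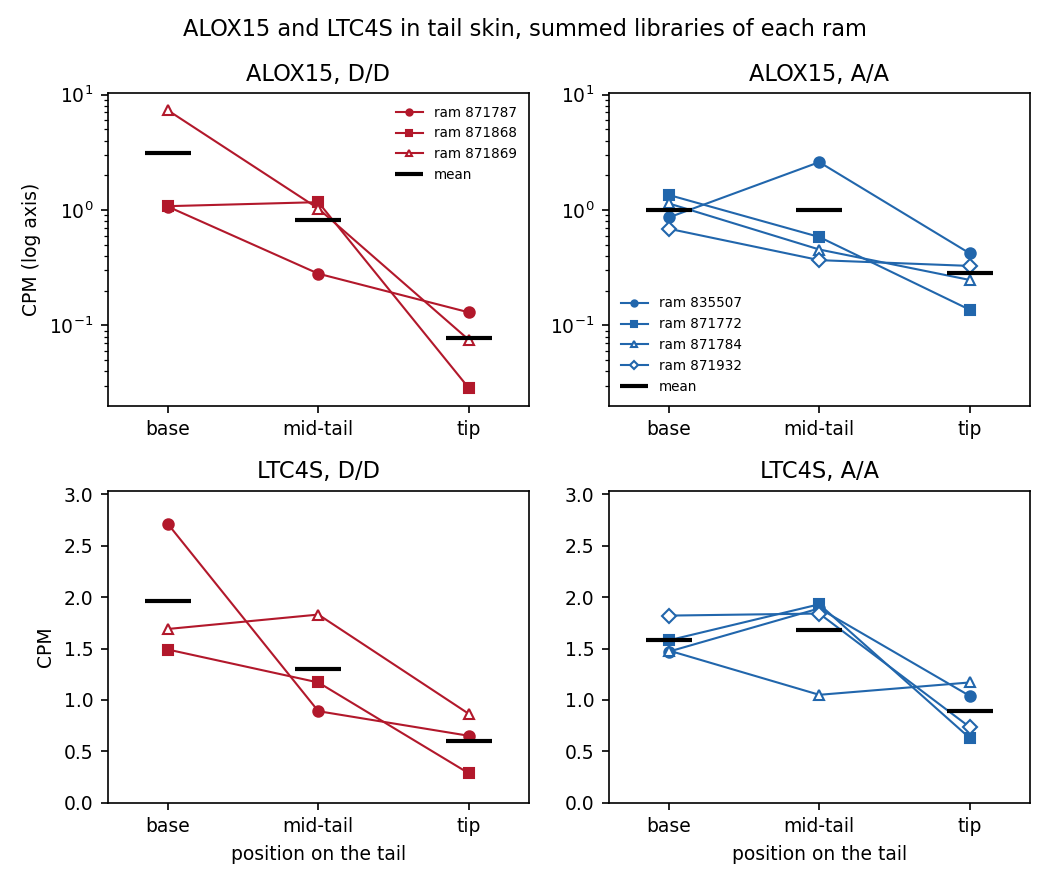
ALOX15 (upper panels, log axis) and LTC4S (lower panels, linear axis) in CPM at base, mid-tail and tip, with D/D rams on the left and A/A rams on the right; each line is 1 ram and the black bars are group means. Tips of ALOX15 reach 0.0288 to 0.130 CPM in D/D and 0.137 to 0.422 CPM in A/A rams, below every base, and D/D ram 871869 stands at 7.30 CPM at the base.

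Within genotypes, ALOX15 fell at the D/D tip by 5.07 on the log2 scale (SE 0.86, edgeR adjusted p = 0.0158), and was the only enzyme gene of the 10 called there, where 0.447% of genes were called lower and 0.118% higher. That call was lost without any 1 of the D/D rams: the log2 fold change was -6.00 (adjusted p = 0.0662) without 871787, -5.05 (0.0894) without 871868 and -3.91 (0.313) without 871869. At the A/A tip the change was -1.97 (SE 0.62) with an adjusted p of 0.131, so it was not called in edgeR, where 0.787% of genes were called lower and 0.843% higher. DESeq2 on the same sums gave an adjusted p of 0.041 there. The tip change in D/D minus that in A/A was -3.10 (SE 1.11), with a p of 0.0134 and an edgeR adjusted p of 0.789.

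LTC4S, which makes the parent cysteinyl leukotriene, had the next steepest decline. Its tips held 0.652, 0.288 and 0.866 CPM in D/D rams 871787, 871868 and 871869, against 2.71, 1.49 and 1.69 CPM in their bases. In A/A rams 835507, 871772, 871784 and 871932 its tips held 1.04, 0.631, 1.17 and 0.737 CPM, against 1.47, 1.58, 1.48 and 1.82 CPM in their bases. Every tip again lay below every base, which was so for 2 of the 10 enzyme genes, ALOX15 and LTC4S, and for 0.350% of all genes tested.

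Averaged over genotypes, LTC4S fell by 1.31 on the log2 scale (SE 0.26, edgeR adjusted p = 0.00846), a change of -59.6%. Without D/D ram 871868 the adjusted p was 0.0526, and in the fits without each other ram it stayed under 0.05. In D/D rams alone the change was -1.80 (SE 0.39, adjusted p = 0.0522) and in A/A rams -0.82 (SE 0.33, adjusted p = 0.252). The D/D value lay close to the threshold: it passed in 8 of 12 alternative fits other than those leaving out a ram, among them DESeq2 on the same sums with an adjusted p of 0.00319.

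ALOX5AP, the partner that hands arachidonic acid to ALOX5, was lower at the D/D tip and little different at the A/A tip. D/D tips held 1.56, 1.53 and 1.77 CPM in rams 871787, 871868 and 871869, against 4.44, 2.51 and 3.36 CPM in their bases. A/A tips held 4.22, 3.02, 1.91 and 2.99 CPM in rams 835507, 871772, 871784 and 871932, against 5.05, 3.80, 2.50 and 2.47 CPM in their bases. Tip and base did not overlap in D/D and overlapped in A/A, where ram 871932 was higher at the tip.

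The averaged change of ALOX5AP was -0.62 (SE 0.17, edgeR adjusted p = 0.0489), at the edge of the threshold. It passed in none of the 7 fits that left out 1 ram, in which the change lay between -0.71 and -0.51 and the adjusted p between 0.0526 and 0.266. The change was -1.07 (SE 0.26, adjusted p = 0.0743) in D/D and -0.17 (SE 0.22, adjusted p = 0.795) in A/A. The difference between these changes was -0.90 (SE 0.34), with a p of 0.0170 and an edgeR adjusted p of 0.789.

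ALOX5 itself, the enzyme that starts leukotriene synthesis, was lower at the tip in 6 of 7 rams and was not called. D/D tips held 4.00, 1.73 and 2.64 CPM in rams 871787, 871868 and 871869, against 5.13, 3.93 and 3.79 CPM in their bases, with overlap. A/A tips ran between 2.44 and 5.03 CPM, against 4.11 to 5.43 CPM in A/A bases. The averaged change was -0.55 (SE 0.18, edgeR adjusted p = 0.106), and in the 3 fits to single libraries, which treat the libraries of a ram as replicates, it passed with an adjusted p as low as 0.0148.

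**Figure D2:**
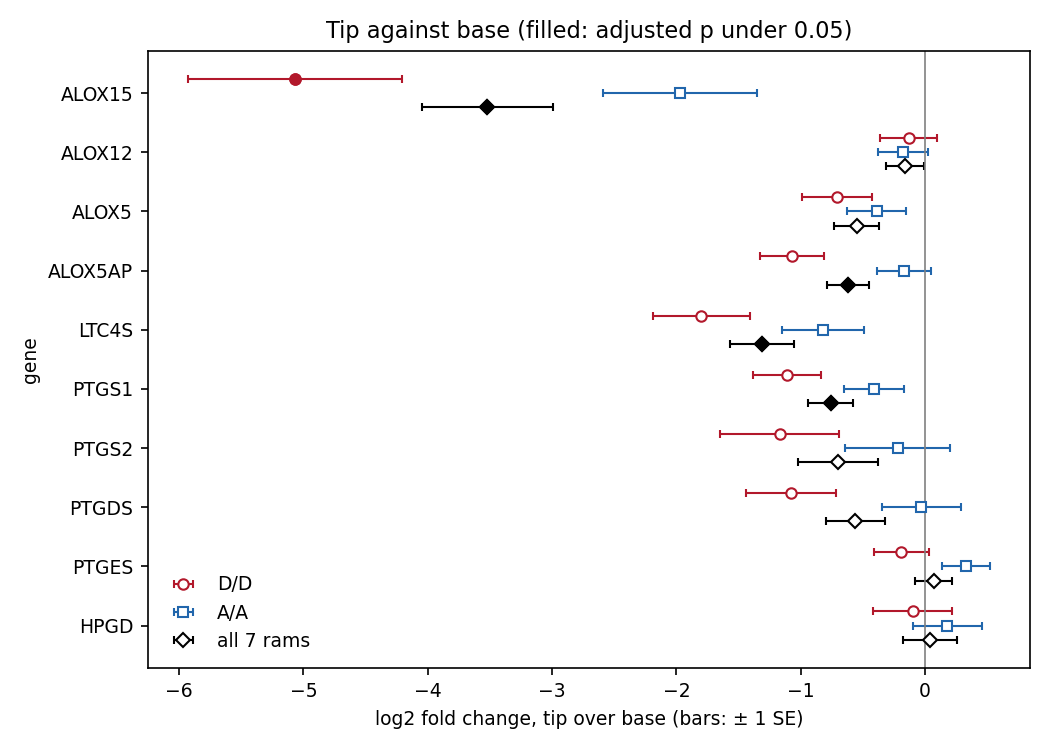
Log2 fold change, tip over base, of the 10 enzyme genes in D/D rams (red circles), A/A rams (blue squares) and both genotypes averaged (black diamonds), with bars of 1 SE and filled symbols where the edgeR adjusted p was under 0.05. The filled symbols are ALOX15 in D/D (-5.07) and ALOX15, LTC4S, PTGS1 and ALOX5AP in the average (-3.52, -1.31, -0.76 and -0.62).

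PTGS1, the constitutive cyclooxygenase, fell at the tip in the average of both genotypes. D/D tips held 4.78, 4.90 and 2.52 CPM in rams 871787, 871868 and 871869, against 10.5, 8.13 and 6.87 CPM in their bases. A/A tips held 8.84, 3.54, 5.25 and 2.87 CPM in rams 835507, 871772, 871784 and 871932, against 7.60, 7.28, 6.83 and 3.85 CPM in their bases. The D/D tips lay below the D/D bases without overlap, while A/A ram 835507 was higher at the tip and the A/A groups overlapped.

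The averaged change of PTGS1 was -0.76 (SE 0.18, edgeR adjusted p = 0.0249), or -40.9% in level. The call was lost in 5 of the 7 fits that left out 1 ram: the adjusted p was 0.132 without D/D 871787, 0.0588 without D/D 871868, 0.111 without D/D 871869, 0.0606 without A/A 871772 and 0.0657 without A/A 871932. The change was -1.11 (SE 0.27, adjusted p = 0.0798) in D/D and -0.41 (SE 0.24, adjusted p = 0.462) in A/A.

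PTGS2, the inducible cyclooxygenase, had 2 sums far above the rest. D/D tips held 5.21, 5.88 and 6.10 CPM in rams 871787, 871868 and 871869, against 25.0, 7.42 and 9.27 CPM in their bases. A/A tips held 2.53, 16.6, 3.58 and 5.41 CPM in rams 835507, 871772, 871784 and 871932, against 7.51, 9.37, 3.92 and 6.48 CPM in their bases. The D/D groups did not overlap and the A/A groups did, with the tip of A/A ram 871772 above every A/A base.

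PTGS2 was not called at the tip: the averaged change was -0.70 (SE 0.32, edgeR adjusted p = 0.259), the D/D change -1.17 (SE 0.48, adjusted p = 0.324) and the A/A change -0.22 (SE 0.42, adjusted p = 0.870). The A/A value changed sign with the rams, at 0.25 without 835507 and -0.71 at the other end of the fits leaving out 1 ram. Without D/D ram 871787, the D/D change was -0.50. As background, PTGS2 is an immediate early gene. Of 9 other such genes, 9 were lower at the D/D tip, as 51.6% of all genes were, with a median change of -0.39. Of these, 0 were called, where 0.447% of all genes were called lower and 0.118% higher. Their summed level was 420.6 to 509.3 CPM in D/D tips against 426.1 to 926.7 CPM in D/D bases. In A/A rams the sums overlapped, with 289.8 to 1006.1 CPM in tips against 430.7 to 842.2 CPM in bases. The part of these genes in the PTGS2 values was not tested.

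PTGDS, the lipocalin-type prostaglandin D synthase, was lower at the D/D tip in each ram and mixed in A/A. D/D tips held 14.7, 30.7 and 15.0 CPM in rams 871787, 871868 and 871869, against 41.5, 46.8 and 32.7 CPM in their bases, without overlap. A/A tips held 37.7, 17.9, 22.1 and 20.4 CPM in rams 835507, 871772, 871784 and 871932, against 14.0, 34.1, 26.2 and 22.7 CPM in their bases. A/A ram 835507 thus went against the other 3 A/A rams.

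The PTGDS change was -1.08 (SE 0.36, edgeR adjusted p = 0.199) in D/D, -0.03 (SE 0.32, adjusted p = 0.981) in A/A and -0.56 (SE 0.24, adjusted p = 0.225) in the average, none of them called. The A/A sign moved with the fit, between -0.42 and 0.25 as rams were left out. The D/D change minus the A/A change was -1.05 (SE 0.48), with a p of 0.0428 and an edgeR adjusted p of 0.789.

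**Figure D3:**
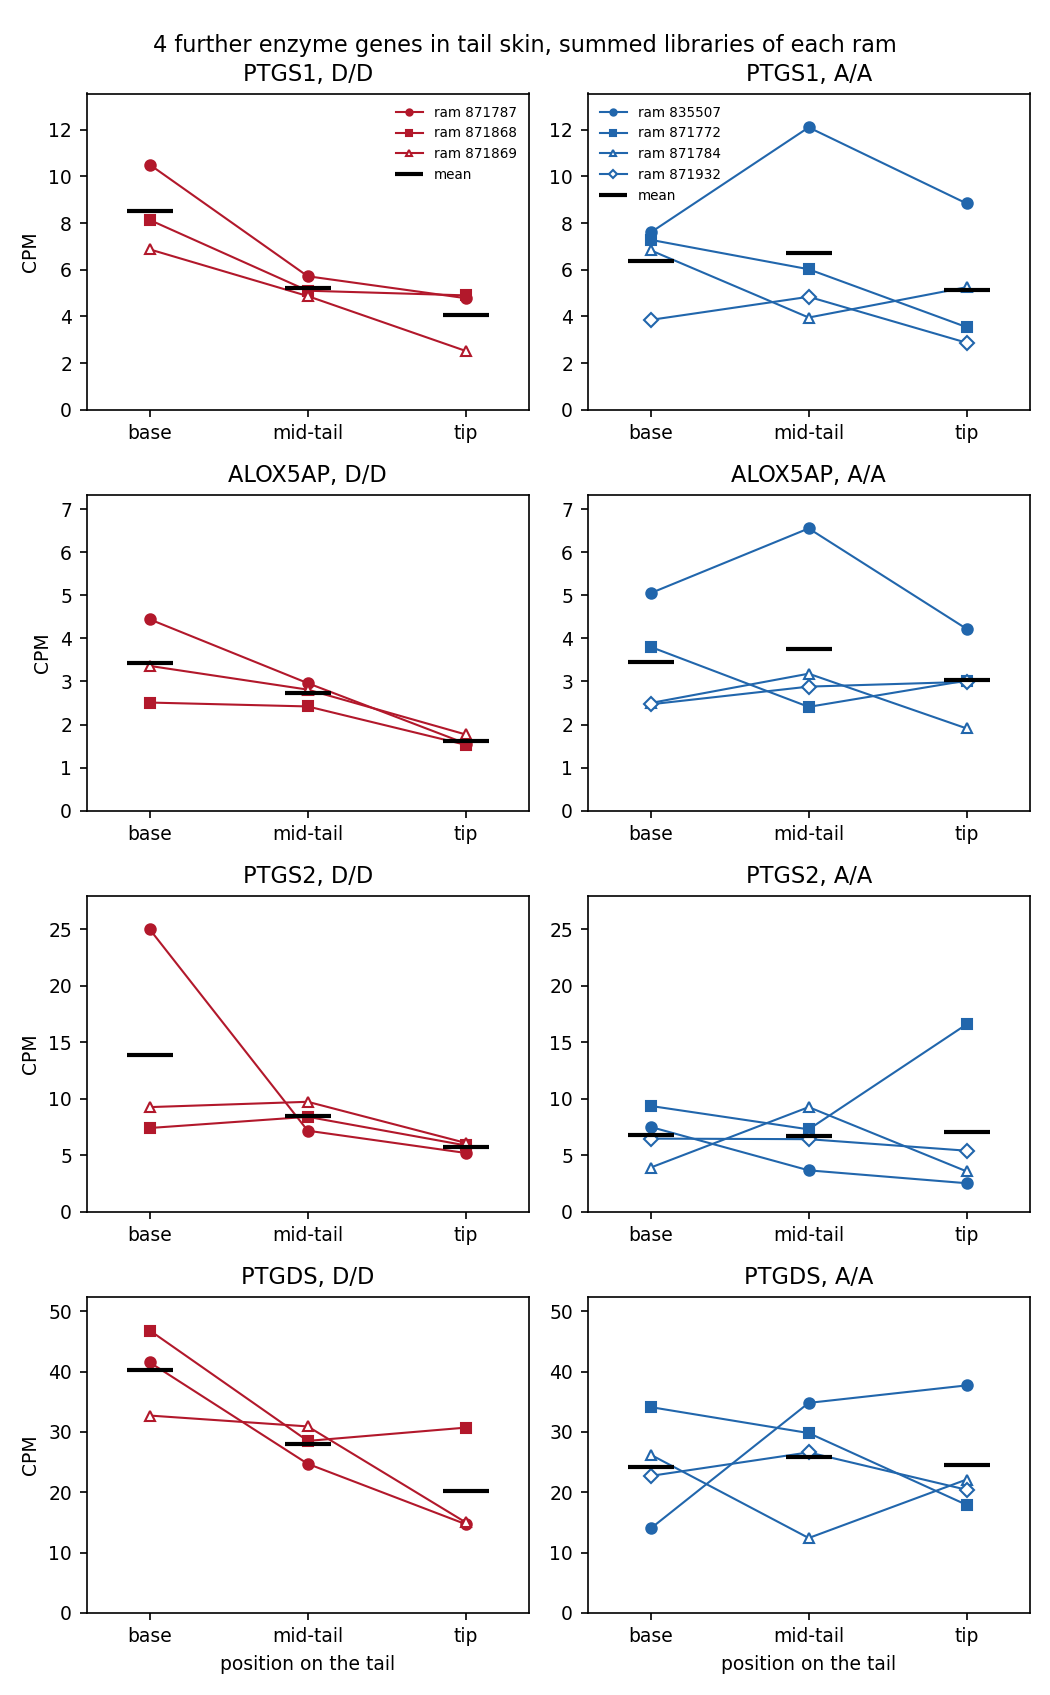
PTGS1, ALOX5AP, PTGS2 and PTGDS in CPM (linear axes from 0) at base, mid-tail and tip, with D/D rams on the left and A/A rams on the right; each line is 1 ram and the black bars are group means. In D/D rams all tips lie below all bases for each of the 4 genes, and in A/A rams the tips and bases overlap, with PTGS2 at 16.6 CPM in the tip of ram 871772 and PTGDS at 37.7 CPM in the tip of ram 835507.

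PTGES, HPGD and ALOX12 had averaged tip changes of at most 0.16 in size. PTGES, which makes the E-type prostaglandin, averaged 11.9 ± 4.00 CPM at the D/D tip against 13.1 ± 3.25 CPM at the D/D base (SD, n = 3), and 9.63 ± 1.10 CPM at the A/A tip against 7.68 ± 1.59 CPM at the A/A base (SD, n = 4). HPGD, the prostaglandin-inactivating dehydrogenase, averaged 11.8 ± 3.62 CPM at the D/D tip against 12.1 ± 2.04 CPM at the D/D base, and 14.7 ± 1.57 CPM at the A/A tip against 13.8 ± 5.94 CPM at the A/A base. ALOX12 averaged 23.1 ± 3.50 CPM at the D/D tip against 25.0 ± 7.28 CPM at the D/D base, and 21.7 ± 5.58 CPM at the A/A tip against 24.2 ± 3.20 CPM at the A/A base. The averaged changes were 0.07 (SE 0.15), 0.04 (SE 0.22) and -0.16 (SE 0.15) with edgeR adjusted p of 0.856, 0.951 and 0.655, and that of HPGD changed sign as rams were left out (-0.11 to 0.17).

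Counted together, 10 of the 10 enzyme genes had a lower fitted level at the D/D tip than at the D/D base, as 51.6% of all genes did (median log2 fold change -1.08, against -0.01 over all genes). In A/A rams 8 of the 10 were lower, beside 51.0% of all genes, the median of the 10 being -0.20. Tip and base did not overlap, with the tip lower, for 6 of 10 in D/D rams (ALOX15, ALOX5AP, LTC4S, PTGS1, PTGS2 and PTGDS), where this held for 7.40% of all genes, and for 2 of 10 in A/A rams (ALOX15 and LTC4S), where it held for 1.45%. The 10 were chosen with earlier results of these data known, and the study had named ALOX15, ALOX5AP, PTGS1 and PTGDS as down-regulated. These counts are thus not independent of the choice, and beside the shares of all genes they are a description and not a test. None of the 10 was called in A/A rams by edgeR, and 2 had an unadjusted p under 0.05, as 14.4% of all genes did. DESeq2 called 1 there, ALOX15, and its share over all genes is not given here. The difference between the genotypes' tip changes was negative for 9 of 10 and for 50.1% of all genes. None of the 10 passed the adjustment, which 0% of all genes did. For that difference 3 enzyme genes (ALOX15, ALOX5AP and PTGDS) and 1188 of all genes had an unadjusted p under 0.05, and DESeq2 called 30 genes, none of the 10 among them. Comparisons of tip and of mid-tail share the base sums.

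At mid-tail no enzyme gene was called against the base by edgeR on the ram sums. In D/D rams 9 of 10 were lower, beside 51.7% of all genes, with a median change of -0.40. None of the 10 was called by edgeR, limma-voom or DESeq2. The edgeR share over all genes was 0%, with 1311 genes at an unadjusted p under 0.05, and DESeq2 on the sums called 38 genes. ALOX15 averaged 0.826 ± 0.477 CPM at D/D mid-tail against 3.15 ± 3.59 CPM at the D/D base (SD, n = 3), a change of -1.48 (SE 0.65) with a p of 0.0368 and an edgeR adjusted p of 0.726. PTGS1 held 5.72, 5.10 and 4.87 CPM at D/D mid-tail in rams 871787, 871868 and 871869, all below the D/D bases, with a change of -0.68 (SE 0.27), a p of 0.0237 and an edgeR adjusted p of 0.688.

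In A/A rams 3 of 10 were lower at mid-tail, beside 51.5% of all genes, with a median change of 0.06. None of the 10 was called by edgeR, which called 0.0257% of all genes there. PTGES was the 1 enzyme gene with an unadjusted p under 0.05, as 10.1% of all genes had. A/A mid-tails held 12.7, 12.3, 7.24 and 15.1 CPM of PTGES in rams 835507, 871772, 871784 and 871932, against 6.69, 6.12, 8.25 and 9.64 CPM in their bases. Its change was 0.61 (SE 0.19, edgeR adjusted p = 0.320), higher in 3 of 4 rams, and it passed in the 3 fits to single libraries, with an adjusted p as low as 0.00982 in DESeq2. Averaged over genotypes, none of the 10 was called at mid-tail by edgeR, limma-voom or DESeq2, beside 0.134% of all genes in edgeR. ALOX15 alone had an unadjusted p under 0.05, as 11.1% of all genes did, with a change of -0.92 (SE 0.43, edgeR adjusted p = 0.446). No enzyme gene was called for a genotype difference in the mid-tail change, where edgeR called 0% of genes; 1 (PTGES) had an unadjusted p under 0.05, as 1013 of all genes did, and DESeq2 called 15 genes.

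Set against each other at the same position, the genotypes gave no call among the enzyme genes. At the base edgeR called 0% of 17738 genes, with 567 at an unadjusted p under 0.05, and DESeq2 17. Of the enzyme genes, 4 had an unadjusted p under 0.05, all higher in D/D: PTGES by 0.75 on the log2 scale (SE 0.25), PTGDS by 0.71 (SE 0.27), ALOX15 by 1.63 (SE 0.66) and PTGS2 by 1.01 (SE 0.44), each with an edgeR adjusted p of 1.000. Only PTGES had no overlap, with 16.1, 13.5 and 9.67 CPM in D/D bases against 6.69, 6.12, 8.25 and 9.64 CPM in A/A bases, the nearest pair differing by less than the spread within either group; 4.67% of all genes had no overlap there. The values of ALOX15 and PTGS2 each rested on 1 ram, with 0.08 for ALOX15 without D/D ram 871869 and 0.27 for PTGS2 without D/D ram 871787.

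At mid-tail, edgeR called 0% of 17996 genes between the genotypes, none of the enzyme genes had an unadjusted p under 0.05 beside 1014 of all genes, and DESeq2 called 31 genes and none of the 10. At the tip, 9 of the 10 were tested, since ALOX15 had too few counts, and edgeR called 0% of 17842 genes, with 1824 at an unadjusted p under 0.05, and DESeq2 63, none of them an enzyme gene. ALOX5AP was lower in every D/D tip (1.53 to 1.77 CPM) than in every A/A tip (1.91 to 4.22 CPM), with a difference of -0.97 (SE 0.33), a p of 0.0192 and an edgeR adjusted p of 0.458. Of the 9 tested it alone did not overlap, as 16.6% of all genes did not.

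Among the other genes of the pathway, 5 were called at the tip in the same fit, in which 2.62% of all genes fell and 1.89% rose. Of 24 other synthesis genes (phospholipases, further lipoxygenases and terminal synthases), 2 rose and 0 fell in the average of both genotypes, with a median change of -0.04. ALOX12B, an epidermal lipoxygenase of the skin barrier, rose by 0.69 on the log2 scale (SE 0.18, edgeR adjusted p = 0.0469), with 25.4 ± 13.2 CPM at the tip against 14.2 ± 7.42 CPM at the base (SD, n = 7), and also in A/A rams alone (1.05, SE 0.24, adjusted p = 0.0415). The A/A call was lost in 4 of the 7 fits that left out 1 ram (adjusted p = 0.145 without A/A 871772, 0.268 without A/A 871932, 0.0758 without D/D 871868 and 0.0573 without D/D 871869) and in 5 of 12 other fits. PLA2G4E, a cytosolic phospholipase of the group that frees fatty acids from membranes, rose by 0.62 (SE 0.16, adjusted p = 0.0337), with 61.9 ± 25.7 CPM at the tip against 40.4 ± 20.7 CPM at the base.

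Of 8 genes for breakdown and transport, 1 fell and 1 rose. EPHX1, the microsomal epoxide hydrolase, fell by 0.50 (SE 0.13, adjusted p = 0.0383), with 31.3 ± 5.12 CPM at the tip against 43.9 ± 13.0 CPM at the base. EPHX2, the soluble epoxide hydrolase that breaks down epoxy fatty acids, rose by 0.62 (SE 0.14, adjusted p = 0.0180), with 47.0 ± 13.5 CPM at the tip against 30.1 ± 8.07 CPM at the base (SD, n = 7). Of 16 receptor genes, 14 were tested and 1 rose: PTGFR, the receptor for F-type prostaglandins, by 0.63 (SE 0.16, adjusted p = 0.0344), with 14.3 ± 3.72 CPM at the tip against 9.32 ± 3.32 CPM at the base. Each of these 5 calls was lost without any 1 of the D/D rams 871787, 871868 and 871869, with adjusted p between 0.0583 and 0.214, and ALOX12B, PLA2G4E, EPHX1 and PTGFR also without A/A ram 871932 (0.0955 to 0.143), ALOX12B, PLA2G4E and EPHX1 without A/A ram 871772 (0.0546 to 0.0976), and PTGFR without A/A ram 835507 (0.0597).

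Markers of upper keratinocytes, the layers in which ALOX12B acts, moved in part beside it. Of 7 tested, 2 rose and 0 fell, where 1.89% of all genes rose and 2.62% fell. KRT1, a keratin of the layers above the basal one, rose by 1.33 on the log2 scale (SE 0.25, edgeR adjusted p = 0.00726). FLG, the barrier protein filaggrin, rose by 1.00 (SE 0.28, adjusted p = 0.0496), while IVL stood at -0.94 (adjusted p = 0.107). The list's summed level was 6693.5 to 27181.1 CPM in D/D tips against 5321.9 to 10989.2 CPM in D/D bases, and 9905.1 to 22481.4 CPM in A/A tips against 6133.7 to 12764.4 CPM in A/A bases. The KRT1 call was lost without D/D ram 871787 (adjusted p = 0.0579) or 871868 (0.0562), and that of FLG without any 1 ram other than A/A 835507 (0.0612 to 0.248). Of 5 basal keratinocyte markers, 5 were higher and 0 were called. The part of these cells in the values of ALOX12B and the other pathway genes was not tested.

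**Figure D4:**
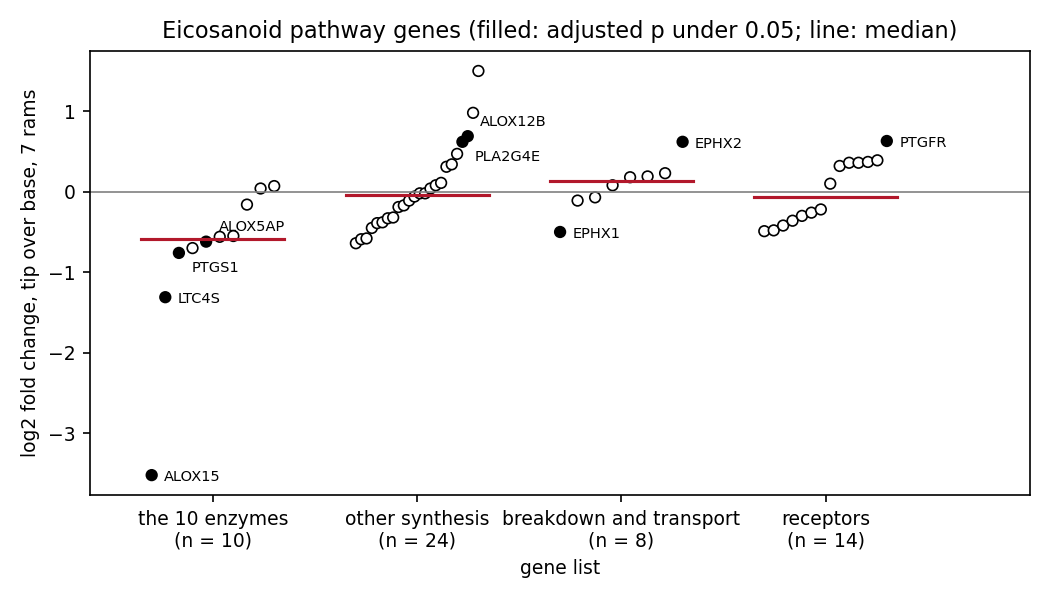
Log2 fold change, tip over base, averaged over both genotypes, for the 10 enzyme genes and 3 lists of other pathway genes; each point is a gene, filled and named where the edgeR adjusted p was under 0.05, and the red line is the list's median. The medians are -0.59 for the 10 enzymes, -0.04 for other synthesis genes, 0.13 for breakdown and transport and -0.06 for receptors.

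Markers of macrophages and of adventitial fibroblasts fell at the tip beside the enzyme genes, while those of other leukocytes gave 1 call. Of 8 macrophage markers tested, 6 fell in the average of both genotypes (C1QA, C1QB, C1QC, CD14, CSF1R and MRC1, by 0.77 to 1.24 on the log2 scale) and 0 rose, where 2.62% of all genes fell and 1.89% rose. The summed level of the macrophage list was 61.0 to 70.2 CPM in D/D tips against 97.8 to 164.4 CPM in D/D bases, and 63.8 to 107.0 CPM in A/A tips against 102.7 to 209.5 CPM in A/A bases; of the list, CD68 had a count of 0 in all 21 sums. Without D/D ram 871787, C1QA, C1QB, CSF1R and MRC1 lost their calls (adjusted p = 0.0711 to 0.107), as C1QA, C1QB and MRC1 did without D/D ram 871869 (0.0779 to 0.101), and C1QC and CD14 kept theirs in the fits without each ram. Of 7 mast cell markers, 7 were lower and 1 (HDC, the histamine-forming enzyme, -1.49) fell, though not without A/A ram 871932 or any 1 D/D ram (adjusted p = 0.0532 to 0.0674), with summed levels of 11.2 to 18.9 CPM in D/D tips against 15.7 to 22.6 CPM in D/D bases and of 13.2 to 40.1 CPM in A/A tips against 20.9 to 43.5 CPM in A/A bases.

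Of 6 markers of adventitial fibroblasts, which lie around vessels, 5 fell (SCARA5, PI16, CLEC3B, DPP4 and MFAP5, by 0.83 to 1.85 on the log2 scale), where 2.62% of all genes fell. The list's sum was 242.6 to 377.4 CPM in D/D tips against 532.3 to 608.9 CPM in D/D bases, and 242.6 to 299.5 CPM in A/A tips against 362.9 to 680.5 CPM in A/A bases. The calls of CLEC3B and MFAP5 were lost without D/D ram 871787 (adjusted p = 0.0874 and 0.0508), and that of MFAP5 also without D/D ram 871869 (0.0506). Of 4 T cell markers, 4 were lower and 0 were called, with a median of -0.58. Of 4 neutrophil markers tested, 4 were higher and 0 were called. The list's sum was 44.8 to 700.1 CPM in D/D tips against 24.6 to 131.2 CPM in D/D bases, and 20.4 to 430.4 CPM in A/A tips against 18.7 to 36.2 CPM in A/A bases. Most of that sum was S100A8 and S100A9, with means of 50.2 and 42.2 CPM. MPO and ELANE, with 10 and 23 counts in all, were not tested. The 2 eosinophil markers tested, CCR3 and IL5RA, summed to 0.151 to 0.478 CPM in D/D tips against 0.246 to 0.585 CPM in D/D bases, and neither was called. The part of these cell types in the values of the enzyme genes was not tested.

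Across the 21 sums, with each ram's mean taken off, the levels of PTGS1 and PTGDS were the most alike pair of enzyme genes (Pearson r of log2(CPM + 0.5) = 0.873), followed by ALOX5 and LTC4S (0.826), LTC4S and PTGS1 (0.815) and ALOX15 and PTGS1 (0.795). HPGD and ALOX12 were the least alike (-0.600). These correlations are a description: the points share rams, libraries and the same position differences. Of the 12927 genes compared, the one nearest to ALOX15 was LVRN (0.902), to LTC4S CDH4 (0.901), to ALOX5AP CD84 (0.907), to PTGS1 TPPP3 (0.965) and to PTGS2 CXCL9 (0.856), an interferon-induced chemokine. The nearest to ALOX5 was SP9 (0.844), to PTGDS APOBEC3F (0.915), to PTGES GRIK4 (0.911), to HPGD ERCC6L2 (0.958) and to ALOX12 TARBP2 (0.902).

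In the reference assembly ARS-UI_Ramb_v3.0, ALOX15 lies on chromosome 11 at 26580675 to 26589357 and ALOX12 at 26672877 to 26686502, both inside the span of 1 gene model, LOC105607815 (26559050 to 26688011). The annotation table used here gives no strand, so whether ALOX15 or ALOX12 could share reads with that model was not checked. That model had an averaged tip change of 0.09 (SE 0.10), against -3.52 for ALOX15 and -0.16 for ALOX12. A further protein-coding model between them, LOC101113251, had a change of -0.40 (SE 0.16, edgeR adjusted p = 0.202). PTGDS (930234 to 933238), PTGES (6779471 to 6791085) and PTGS1 (13515914 to 13540542) lie on chromosome 3, PTGS2 on chromosome 12 (67176944 to 67184568), ALOX5AP on chromosome 10 (30408378 to 30436392), ALOX5 on chromosome 25 (43313506 to 43360884), LTC4S on chromosome 5 (1293327 to 1296483) and HPGD on chromosome 2 (106312275 to 106347451). PTGS2, PTGDS, HPGD and PTGS1 each overlap another annotated gene at one end or within, and reads in such overlaps are counted with strand, so that only genes on the same strand could share them.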

How the data were processed

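RNA-seq was made from tail skin of 7 rams at 3 positions (41 libraries). Per the labels and the study's methods, the authors read poly(A)-selected libraries in pairs, checked them with FastQC 0.11.9, aligned them with ContextMap 2 to ARS-UI_Ramb_v3.0 and deposited raw counts per RefSeq gene from strand-specific featureCounts. All 41 deposited columns hold whole numbers, so the rounding that estimated counts would need changed no value. Counts were summed per ram and position into 21 sums, because nothing says that the libraries of a ram are separate biopsies. Genes passing edgeR's filterByExpr were tested with its quasi-likelihood test (edgeR 4.0.16, R 4.3.3, TMM normalisation), with group and ram as terms for positions and genotype alone between genotypes, and p-values were adjusted over all genes by Benjamini-Hochberg, with 0.05 as threshold. The averaged change weights both genotypes equally. SEs were taken from the F statistic. The fit was tested on simulated data.

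Sums of the same ram deviated together: 20 of 21 pairs correlated above 0.1 (0.053 to 0.852), and they come from the same animal, so the ram was kept as a block. The 10 genes, the pathway and marker lists and the tests were chosen with earlier results of these data known. All 10 genes are named; of the other pathway genes, those with an adjusted p under 0.05; likeness gives the nearest of genes with at least 1 CPM. Some genes of the lists were not found under their symbols and were not analysed here. Alternatives were DESeq2 1.42.0, limma-voom (limma 3.58.1), other normalisations, filters and thresholds, single libraries, no block, each genotype alone and leaving out each ram. Gene spans come from the RefSeq table of the same assembly name; 28742 table genes matched it by symbol. Transcript lengths were not used here, so levels are compared between samples and not between genes. Sequences were not used here.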

Additional observations from a re-analysis of the deposited data

Results flagged for a closer look

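Among the 30 groups of 4 A/A rams (10 genes at 3 positions), 2 held a ram whose gap to its nearest neighbour passed Dixon's 95% critical value for the gap as a share of the group's range, where chance gives about 1 in 20 groups. ALOX15 stood at 2.60 CPM in the mid-tail of A/A ram 835507, against 0.368 to 0.584 CPM in the other 3; both libraries of that sum were high, with 30 and 36 counts. LTC4S stood at 1.05 CPM in the mid-tail of A/A ram 871784, below the 1.84 to 1.93 CPM of the other 3. The D/D groups of 3 rams were not checked in this way. No enzyme gene moved one way in every D/D ram and the other way in every A/A ram.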

How the results depend on the processing

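For the tip in the average of both genotypes, 4 of the 10 enzyme genes were called; the count was 2 at the study's thresholds (adjusted p of at most 0.01 and a log2 fold change over 1 in size), 2 with no replicate block (the ram not a term), 5 in edgeR on single libraries and 6 in DESeq2 on single libraries, and it lay between 1 and 4 as rams were left out. In D/D rams the 1 call became 0 at the study's thresholds, 0 with no replicate block, 2 with library totals, 2 with no filter on low counts, 2 with a filter of at least 1 CPM in 3 sums, 4 in DESeq2 on the sums, 5 with each genotype fitted alone, 4 in edgeR on single libraries, 4 with the library number as a replicate block beside the ram and 6 in DESeq2 on single libraries, and lay between 0 and 3 as rams were left out. In A/A rams the count of 0 at the tip became 1 (ALOX15) in DESeq2 on the sums and in the 3 fits to single libraries, and the count of 0 at mid-tail became 1 (PTGES) in the fits to single libraries; both stayed at 0 as rams were left out. The other 7 counts were 0 in every fit run. For the tip counts, the shares of all genes called in the alternative fits are not given here. The counts thus show only how the calls depend on the fit, and not a result about the enzyme genes. Single-library fits treat 2 libraries of a ram as replicates, which gives them smaller p-values if the libraries come from 1 piece of skin.

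Signs changed only for values near 0. PTGDS at the A/A tip (-0.03) became 0.02 in limma-voom, 0.02 with no replicate block, 0.01 and 0.03 in edgeR on single libraries without and with the library number as a replicate block, and 0.02 in DESeq2 on single libraries, and ran between -0.42 and 0.25 as rams were left out. PTGS2 there (-0.22) became 0.05 with no replicate block and ran between -0.71 and 0.25. Leaving out rams gave HPGD -0.11 to 0.17 in the average, -0.27 to 0.01 in D/D and -0.10 to 0.45 in A/A, and ALOX12 -0.40 to 0.07 in D/D. The adjusted p of ALOX15 in the average was 0.0227 or less in every fit run. Depth limits ALOX15 most, with 6 counts over the 3 D/D tips.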
